A study of Mus musculus with 32 samples.

Results

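Liver of mice taken 1 h after surgical removal of 2/3 of the organ was compared with liver taken at time 0, the control of the study. The comparison uses 4 of the 32 arrays of the study, 2 arrays of 1 h and 2 of time 0, chosen by the source named for each sample. The other arrays follow the liver up to 72 h after the operation and through embryonic development, in a study that set regenerating beside developing liver. All adult samples came from 10-week-old females of CD-1, an outbred stock, and the labels name no engineered allele. The animals of the 1 h group were anaesthetised with ketamine and xylazine. Their abdomen was opened at the midline, the anterior lobes were tied off and removed together with the gallbladder, and buprenorphine was given against pain. Time 0 is labelled as baseline, normal liver, and the labels do not say whether these animals were anaesthetised or opened. No group had the operation without loss of liver, so anaesthesia, surgery and loss of tissue cannot be told apart here. Each array (Affymetrix MG 430 2.0) took total RNA from a pool of tissues of at least 3 animals, and 6 hepatectomies went into the 1 h group. The labels say only that the pools are separate samples, so the p-values measure the spread between such pools.

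After partial hepatectomy the remaining hepatocytes, which rarely divide in the resting organ, re-enter the cell cycle and restore the mass of the liver. In the first hours immediate early genes such as Fos, Jun and Myc are transcribed without need of new protein, and cytokines of liver macrophages act through NF-kB and STAT3. The remnant must meanwhile keep up blood glucose, by gluconeogenesis and glycogen breakdown, under glucagon, catecholamines, glucocorticoids and less insulin.

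The deposited values are intensities on a linear scale, given below per array as deposited. A log2 change is the mean of log2(value + 16) at 1 h minus that at time 0, with values below 0 set to 0, and the ± after it is its standard error. Because of the added constant, changes of dim genes come out too small. A gene is described as raised or lowered, or called, where limma gave it an adjusted p under 0.05 among 18194 genes. The spread of each gene was estimated over all 16 groups of the study, and with a single pair of arrays in each group the precision is low. The mean of all values was 201.0 and 212.6 on the 1 h arrays, against 165.3 and 183.8 on the time 0 arrays, while the medians (75.7 and 73.2 against 76.4 and 73.4) were close. Among the 810 genes with a mean level of 1000 or more the median log2 change was 0.63, and 0.09 after quantile normalization. Among the 8249 genes between 50 and 200 it was 0.00 either way, and over all genes it was 0.03. The log2 ratio of 3 prime to 5 prime probe sets of Actb, a sign of RNA integrity, was 1.17 on both 1 h arrays, against 0.78 and 1.02 at time 0. For Gapdh it was -0.28 and -0.17 at 1 h, against -0.22 and -0.33 at time 0. Its part in the results was not tested.

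At 1 h 72 genes were raised (0.396% of those tested) and 14 were lowered (0.0769%), together 86 (0.473%). Of the raised genes 64 changed at least 2-fold and 24 at least 4-fold, and of the lowered genes 12 and 5. In all 86 both 1 h arrays lay on one side of both time 0 arrays, which was also so for 38.2% of all genes (24.2% with both 1 h arrays above). The 3 largest rises were in Igfbp1, G6pc and Ppp1r3g, which belong to insulin-controlled glucose handling, ahead of the signalling genes Ddit4 and Dusp1 and the immediate early factors Fos and Jun. Quantile normalization gave 65 raised and 25 lowered genes, of which 59 and 14 were also called on the deposited scale. Without the second 1 h array 33 genes were raised, without the first time 0 array 4 were lowered and without the second time 0 array 32 were lowered. A fit to the 4 arrays alone called 0 genes, with 1343 at an unadjusted p under 0.05, and a fit to the 20 adult arrays called 30 raised and 3 lowered. Of the genes called in the fit of all arrays, 32 raised and 2 lowered ones (Nr1d2 and Gm9895) stayed called whichever of the 4 arrays was left out.

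**Figure D1:**
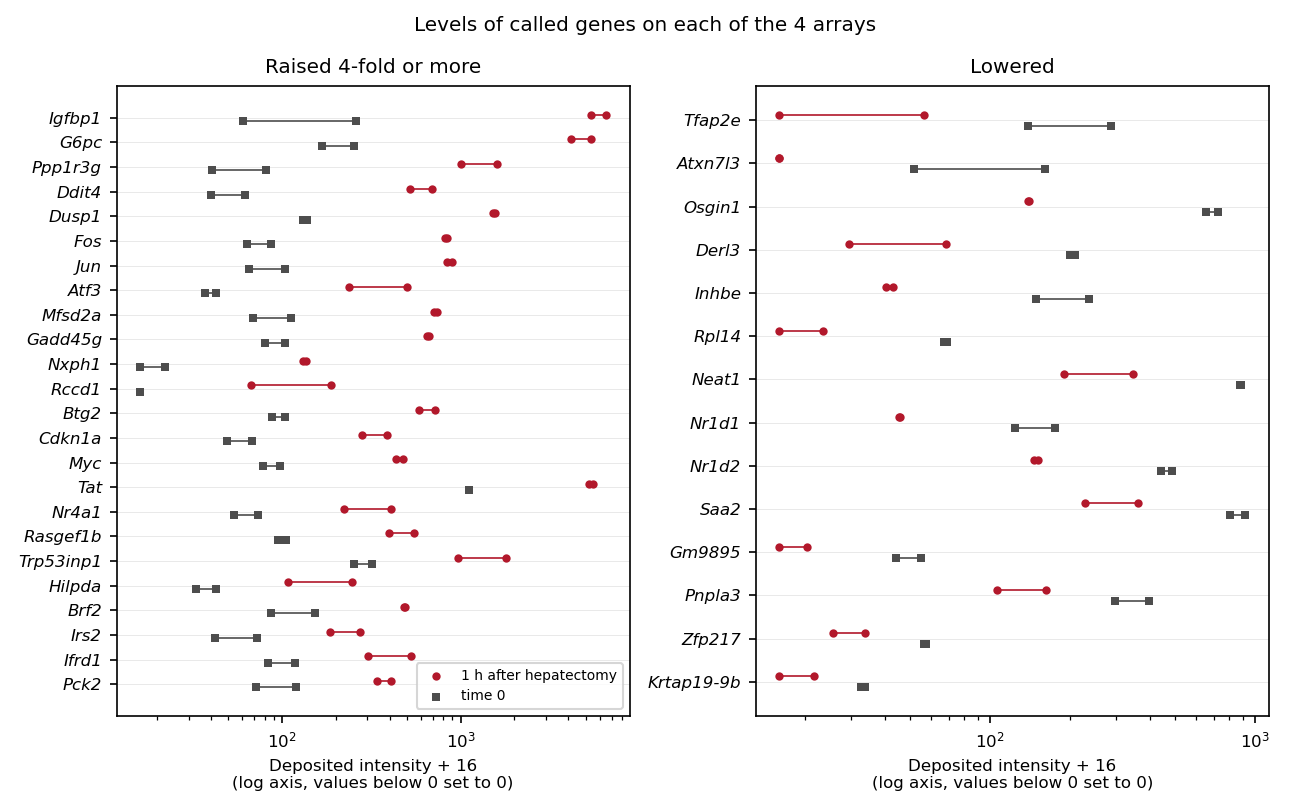
Deposited intensity plus 16 on a log axis, for the 24 genes raised at least 4-fold and the 14 lowered genes, with 1 point per array (red circles for 1 h after hepatectomy, grey squares for time 0) and a line joining the 2 arrays of a group. In every gene shown the points of 1 h lie on one side of those of time 0, and Igfbp1 spans 5384 to 6520 at 1 h and 44.8 to 243.6 at time 0.

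**Figure D2:**
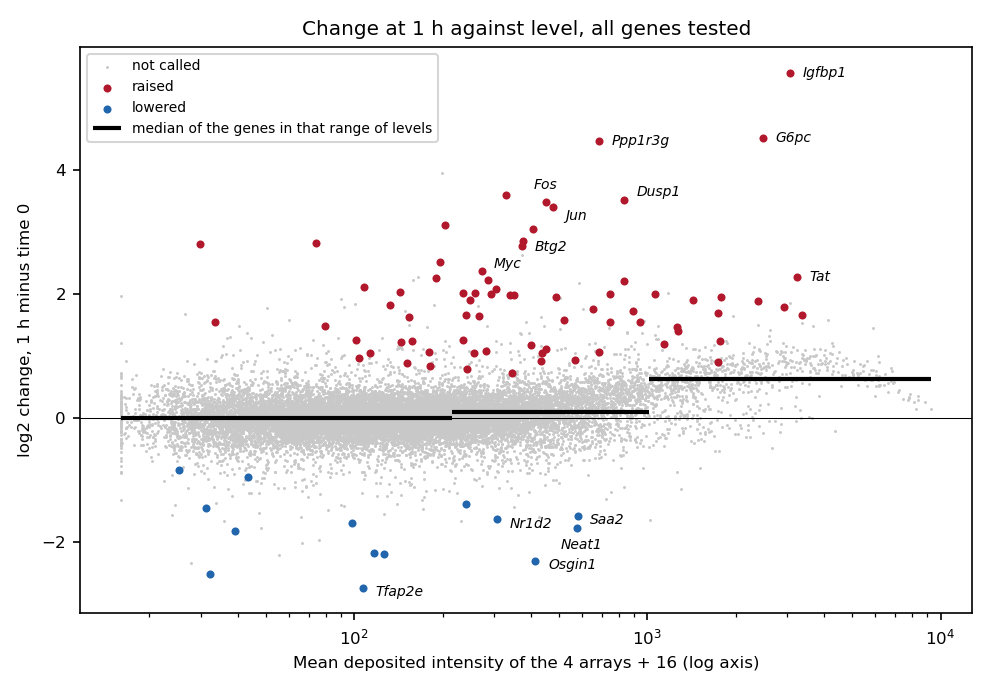
Log2 change at 1 h against the mean deposited intensity of the 4 arrays plus 16 (log axis) for the 18194 genes tested, with raised genes in red, lowered genes in blue and black bars for the median of genes in each range of levels. The bar of the genes at 1000 or more lies at 0.63, and the lowest 2 bars lie at 0.

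Of 25 pathway lists and 12 lists of cell type markers, with 591 measured genes, 46 called genes were members, 39 raised and 7 lowered. The lists with the most raised members were mRNA decay and growth arrest (8 of 26), immediate early factors (7 of 32) and glucocorticoid and cyclic AMP responsive genes (6 of 22). Over all genes 0.396% were raised and 0.0769% lowered. The lists were chosen with earlier results of these data known, so their counts and order are description only. The limma fit called 0 genes in the NF-kB, cholesterol, bile acid, fatty acid oxidation, heat shock, hypoxia, metallothionein, cell cycle, hepatocyte factor, cytochrome P450 and plasma protein lists. Of their 205 genes 34 were higher and 7 lower at an unadjusted p under 0.05, against 1126 and 429 of all 18194.

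**Figure D3:**
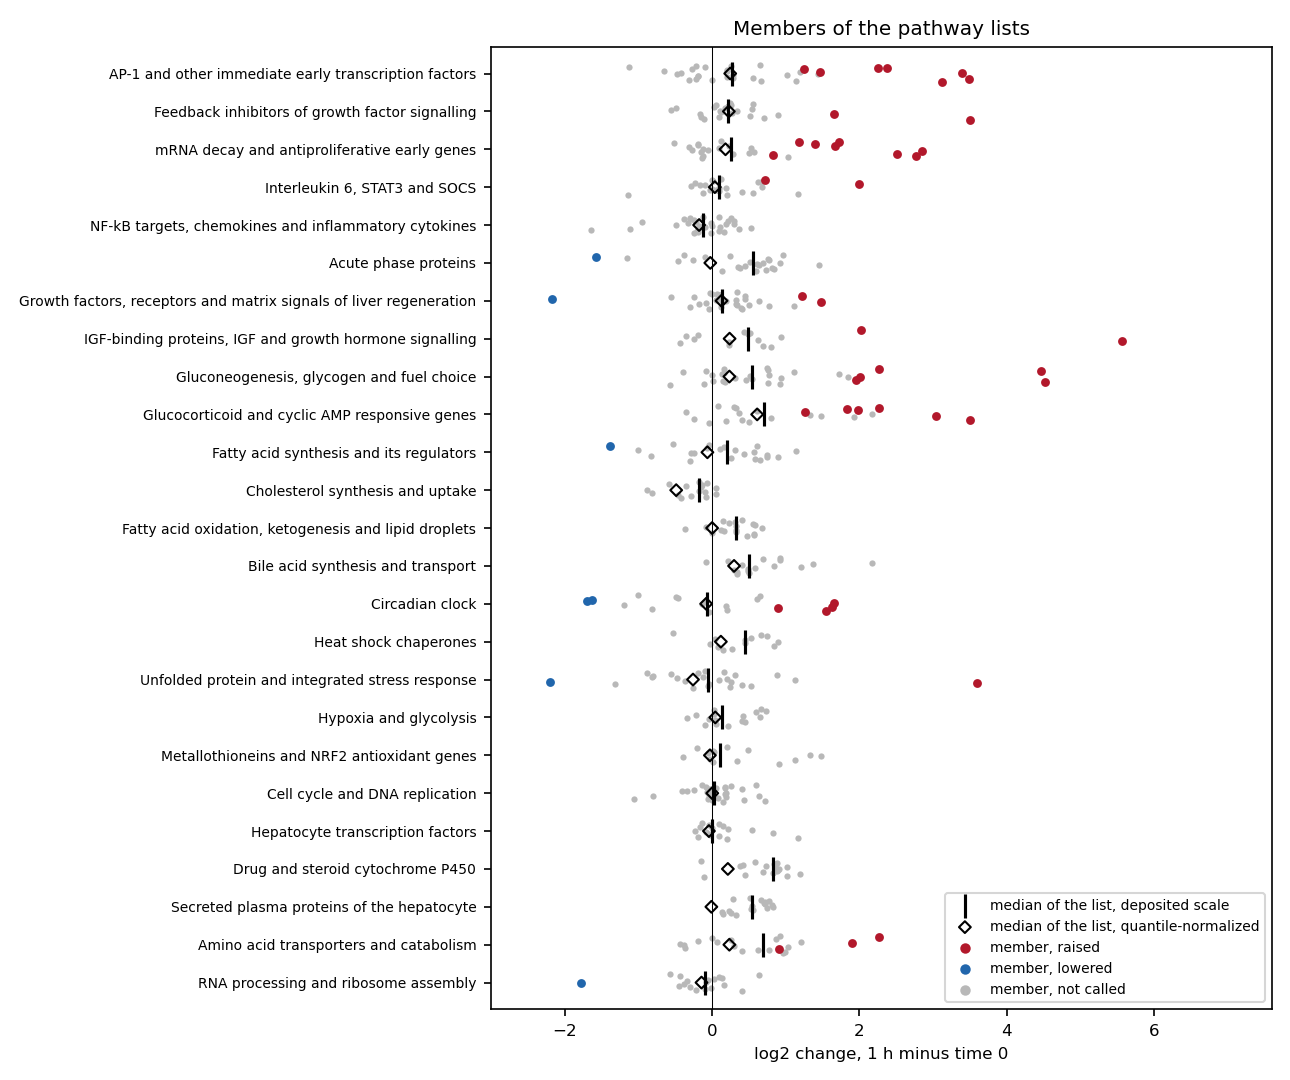
Log2 change at 1 h of each measured member of the 25 pathway lists, 1 point per gene (red for raised, blue for lowered, grey for not called), with the median of each list on the deposited scale (bar) and after quantile normalization (diamond). Igfbp1 stands furthest to the right at 5.56, and the bars of cytochrome P450 and plasma protein genes lie right of their diamonds (0.83 against 0.22, and 0.55 against -0.01).

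Among immediate early transcription factors 7 of 32 members were raised and 0 were lowered, with a list median of 0.27. The raised members were Fos, Jun and Jund, which pair to form the factor AP-1, the related Atf3 and Maff, the orphan nuclear receptor Nr4a1, and Myc, which drives growth and ribosome production. Without 1 of the arrays 4 or 5 members were raised. Fos read 819.7 and 803.9 on the 1 h arrays, against 70.6 and 47.3 at time 0, a log2 change of 3.48 ± 0.53 (adjusted p = 0.00109). Jun read 823.1 and 881.4 at 1 h, against 87.2 and 49.5 at time 0 (3.40 ± 0.32, adjusted p = 3.28e-06). In both genes the 1 h arrays lay close together and far above the time 0 arrays. Fos, called without any 1 of the 4 arrays, lost its call in the fit of the 20 adult arrays (adjusted p = 0.0701) and of the 8 arrays of time 0 to 6 h.

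Atf3, a stress-induced repressor and partner of Jun, read 221.8 and 484.1 at 1 h, against 26.9 and 20.8 at time 0 (3.12 ± 0.39, adjusted p = 9.77e-05). Myc read 461.5 and 417.0 at 1 h, against 62.5 and 81.7 at time 0 (2.38 ± 0.29, adjusted p = 9.07e-05). Nr4a1 read 205.6 and 392.6 at 1 h, against 37.6 and 57.8 at time 0 (2.26 ± 0.40, adjusted p = 0.00576). In Atf3 and Nr4a1 the second 1 h array was well above the first, and in all 3 genes the groups did not overlap. The call of Nr4a1 was lost without the second 1 h array (adjusted p = 0.242) and without the first time 0 array (0.114). Jund, at 1722 and 1963 at 1 h against 652.2 and 663.5 at time 0, and Maff, at 118.4 and 135.0 against 39.0 and 48.8, changed by 1.46 ± 0.29 and 1.25 ± 0.26. Both lost their call without any 1 of the arrays (adjusted p 0.0708 to 0.290 for Jund and 0.0551 to 0.349 for Maff).

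The other immediate early genes were not called, and in both directions some had groups that did not overlap. Egr1, a zinc finger factor, read 974.5 and 952.1 at 1 h, against 434.4 and 424.6 at time 0 (1.14 ± 0.48, adjusted p = 0.505). Junb (1.20, adjusted p = 0.274), Ier2 (1.44, adjusted p = 0.323), Id3 (1.02, adjusted p = 0.303) and Csrnp1 (0.66, adjusted p = 0.329) likewise had groups that did not overlap. Nr4a2, a relative of Nr4a1, read 174.0 and 178.3 at 1 h, against 509.1 and 319.3 at time 0 (-1.13, adjusted p = 0.422), and Klf10 (-0.65, adjusted p = 0.510) and Ier5 (-0.47, adjusted p = 0.449) were also lower on both 1 h arrays. Fosb read 81.2 and 117.3 at 1 h, against 65.5 and 56.7 at time 0 (adjusted p = 0.582).

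Feedback inhibitors of growth factor signalling had 2 raised members of 23. Dusp1, a nuclear phosphatase that switches off MAP kinases, read 1539 and 1495 at 1 h, against 122.6 and 115.4 at time 0 (3.51 ± 0.29, adjusted p = 7.26e-07). Errfi1, an inhibitor of the EGF receptor, read 4841 and 5301 at 1 h, against 1281 and 1998 at time 0 (1.65 ± 0.31, adjusted p = 0.00954). Its call was lost without either 1 h array (adjusted p = 0.0554 without the first and 0.146 without the second) and without the first time 0 array (0.207). Dusp6, the phosphatase of ERK, read 734.6 and 640.2 at 1 h, against 385.1 and 340.8 at time 0 (0.89 ± 0.23, adjusted p = 0.120). The Sprouty genes Spry4 (0.56, adjusted p = 0.408) and Spry1 (0.26, adjusted p = 0.656) were also not called.

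The promoters of Dusp1 and Errfi1 hold a full cyclic AMP response element, as does that of Btg2, an antiproliferative gene described next. The sequences are shown because this motif was in 13.3% of the raised promoters searched and 2.92% of all. They are the bases directly before the gene start, from RefSeq promoters of build GRCm38.p6, 5′ to 3′ in the direction of the gene, with the motif TGACGTCA in capitals. Dusp1 is on the minus strand at chr17:26508473-26508632, Errfi1 on the plus strand at chr4:150854970-150855069 and Btg2 on the minus strand at chr1:134079156-134079335.
Dusp1: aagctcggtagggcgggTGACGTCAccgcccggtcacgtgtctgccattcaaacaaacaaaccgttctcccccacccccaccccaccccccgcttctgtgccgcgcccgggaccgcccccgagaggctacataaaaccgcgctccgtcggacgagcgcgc
Errfi1: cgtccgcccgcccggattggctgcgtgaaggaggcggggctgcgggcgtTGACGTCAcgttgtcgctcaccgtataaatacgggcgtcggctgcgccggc
Btg2: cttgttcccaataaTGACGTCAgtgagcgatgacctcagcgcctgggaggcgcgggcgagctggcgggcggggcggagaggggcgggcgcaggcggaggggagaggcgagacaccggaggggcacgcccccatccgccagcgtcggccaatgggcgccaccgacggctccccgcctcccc

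The motif was searched on both strands from 250 bases before to 50 bases after the start, in the 14453 tested genes with a promoter sequence, of which 60 were raised and 13 lowered. It was present in 8 of the 60 raised genes and 1 of the 13 lowered genes (Pnpla3). The other raised genes with it were Ccnl1, Ell2, Maff, Neurl1a and Wsb1. The AP-1 site TGANTCA was in 3.33% of raised genes and 7.54% of all, and the CArG box, bound by serum response factor, in 1.67% and 1.58%. The STAT site TTCNNNGAA was in 10.0% and 8.57%, the E-box CACGTG in 13.3% and 10.2%, the forkhead core GTAAACA in 3.33% and 3.40%, and the NF-kB site in 13.3% and 6.07%. A match describes letters in the window and no binding, and the E-box shares its middle bases with the cyclic AMP response element.

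Genes of mRNA decay and growth arrest held 8 raised members of 26, with a list median of 0.26. Without 1 of the arrays between 3 and 6 members were raised. Gadd45g, a stress-induced brake on growth, read 633.8 and 651.9 at 1 h, against 63.8 and 88.4 at time 0 (2.85 ± 0.31, adjusted p = 1.75e-05). Btg2, which recruits the deadenylase that shortens mRNA tails, read 571.4 and 700.2 at 1 h, against 87.8 and 71.6 at time 0 (2.77 ± 0.26, adjusted p = 3.28e-06). Cdkn1a, the cyclin-dependent kinase inhibitor p21, read 265.9 and 370.3 at 1 h, against 52.3 and 33.4 at time 0 (2.51 ± 0.31, adjusted p = 9.77e-05). These 3 genes stayed called without any 1 of the arrays.

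The calls of the other raised members did not hold in every fit without 1 array. In those fits the log2 change was 1.66 to 1.79 in Zfp36, 1.31 to 1.49 in Tob1 and 1.07 to 1.31 in Zfp36l1. It was 1.48 to 1.85 in Plk3 and 0.65 to 1.01 in Ccng2. Zfp36, which encodes tristetraprolin and marks AU-rich mRNAs for decay, read 1417 and 1297 at 1 h, against 388.4 and 409.3 at time 0 (1.73 ± 0.36, adjusted p = 0.0240). It lost its call without any 1 of the arrays (adjusted p 0.0738 to 0.183) and under quantile normalization. Its relative Zfp36l1 (1.19 ± 0.22) and the antiproliferative Tob1 (1.40 ± 0.30) also lost their calls under quantile normalization. The other probe set of Zfp36l1 read 684.8 and 743.5 at 1 h, against 667.3 and 618.0 at time 0, a log2 change of 0.15. The call of Zfp36l1 also ended with the mean of probe sets. Leaving out arrays ended the call of Tob1 in 4 of 4 cases (highest adjusted p = 0.385), and of Zfp36l1 in 3 (highest 0.133). The polo-like kinase Plk3 (1.66 ± 0.30) lost its call without the second 1 h array (adjusted p = 0.185) and without the first time 0 array (0.100). Ccng2, a cyclin of quiescent cells (0.83 ± 0.17), lost its call in 3 of 4 cases (highest adjusted p = 0.374). Among targets of p53, Cdkn1a, Btg2 and Plk3 were raised, as was Trp53inp1 outside this list (2.21 ± 0.28, adjusted p = 9.96e-05). Mdm2, an inhibitor of p53 itself (-0.12, adjusted p = 0.963), Ccng1 (-0.12, adjusted p = 0.966) and the cell death gene Bbc3 (-0.13, adjusted p = 0.953) were not called.

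The largest rise of all was in Igfbp1, which encodes a secreted protein that binds insulin-like growth factors and is repressed by insulin. It read 5384 and 6520 on the 1 h arrays, against 44.8 and 243.6 on the time 0 arrays (5.56 ± 0.49, adjusted p = 1.52e-06). The time 0 arrays differed more than 2-fold, and the change lay between 4.52 and 6.61 when 1 array was left out. Irs2, the docking protein of the insulin receptor in liver, read 168.7 and 257.6 at 1 h, against 26.0 and 56.3 at time 0 (2.03 ± 0.28, adjusted p = 0.000410). These were the 2 raised members of the 15 measured in the list of insulin-like growth factor and growth hormone signalling. Igf1 read 5065 and 6063 at 1 h, against 2489 and 4702 at time 0 (0.69, adjusted p = 0.747), and Igfbp4 changed by 0.93 (adjusted p = 0.641). Neither was called, and the list median of 0.49 was 0.24 after quantile normalization.

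G6pc, which encodes the enzyme of the last step of glucose release, read 4113 and 5364 at 1 h, against 236.1 and 152.4 at time 0 (4.52 ± 0.50, adjusted p = 2.2e-05). Ppp1r3g, a subunit that targets protein phosphatase 1 to glycogen, read 988.4 and 1586 at 1 h, against 24.4 and 64.9 at time 0 (4.47 ± 0.35, adjusted p = 5.12e-07). Both genes were low on both time 0 arrays and high on both 1 h arrays. In the gluconeogenesis and glycogen list 5 of 29 members were raised and 0 lowered. The median of the list was 0.55, and 0.24 after quantile normalization. Got1, cytosolic aspartate aminotransferase, read 2423 and 3218 at 1 h, against 657.7 and 761.2 at time 0 (1.96 ± 0.27, adjusted p = 0.000344). Without 1 of the arrays between 3 and 5 members were raised.

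Pck2 and Tat passed the threshold narrowly. Pck2, the mitochondrial PEP carboxykinase, read 324.0 and 392.9 at 1 h, against 55.9 and 103.9 at time 0 (2.01 ± 0.45, adjusted p = 0.0456). It lost its call without either 1 h array (adjusted p up to 0.483) and without the first time 0 array (0.473). Tat, tyrosine aminotransferase, a classic glucocorticoid target, read 5230 and 5489 at 1 h, against 1099 and 1093 at time 0 (2.27 ± 0.51, adjusted p = 0.0456). The arrays of each group lay close together, and its call was lost without any 1 of them (adjusted p 0.118 to 0.388). The cytosolic enzyme Pck1, the textbook control point of gluconeogenesis, read 4224 and 5036 at 1 h, against 719.3 and 2222 at time 0 (1.85 ± 0.66, adjusted p = 0.385). The coactivator Ppargc1a read 65.4 and 70.5 at 1 h, against 60.2 and 61.1 at time 0 (0.13, adjusted p = 0.912). Pygl, liver glycogen phosphorylase (0.76, adjusted p = 0.102), and Pdk4, which blocks pyruvate oxidation (1.72, adjusted p = 0.146), were higher on both 1 h arrays and not called.

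The sequence CAAAACAA, the core of the insulin response element bound by FOXO factors, was in 7 of the 60 raised promoters (11.7%), 0 of the 13 lowered ones and 2.19% of all 14453. The 7 genes were Igfbp1, Irs2, Pck2, Noct, Pde4b, Ccng2 and Tab2. The bases before the start of 3 of them are shown because Igfbp1 and Irs2 are the members of the insulin-like growth factor list among the 7 and Noct holds the core 3 times. The motif or its reverse complement is in capitals, and in Noct matches overlap. Igfbp1 is on the plus strand at chr11:7197637-7197786, Irs2 on the minus strand at chr8:11008930-11009029 and Noct on the plus strand at chr3:51224267-51224446 of GRCm38.p6, from RefSeq.
Igfbp1: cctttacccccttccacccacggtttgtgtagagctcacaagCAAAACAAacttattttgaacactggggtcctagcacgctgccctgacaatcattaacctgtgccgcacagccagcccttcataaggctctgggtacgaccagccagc
Irs2: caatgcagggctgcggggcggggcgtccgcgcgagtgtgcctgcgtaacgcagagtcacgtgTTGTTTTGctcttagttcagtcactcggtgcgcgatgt
Noct: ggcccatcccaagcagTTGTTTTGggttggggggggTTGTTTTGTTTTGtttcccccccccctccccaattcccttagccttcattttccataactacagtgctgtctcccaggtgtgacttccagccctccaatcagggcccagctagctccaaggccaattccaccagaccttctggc

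The core lies at positions -108 to -101 from the start in Igfbp1, on the strand of the gene, and at -38 to -31 in Irs2, on the opposite strand. Noct, a phosphatase of NADPH whose mRNA cycles daily in liver, read 381.8 and 510.4 at 1 h, against 156.9 and 60.7 at time 0 (1.99 ± 0.32, adjusted p = 0.00162). Its call was lost without the second 1 h array (adjusted p = 0.0649). The window of G6pc was not among the matches, which says only that these letters are not in it.

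Glucocorticoid and cyclic AMP responsive genes had 6 raised members of 22, with a list median of 0.70, and of 0.61 after quantile normalization. Sgk1, a kinase induced by glucocorticoids, read 513.4 and 571.9 at 1 h, against 121.1 and 129.7 at time 0 (1.98 ± 0.25, adjusted p = 0.000126). Sik1, a kinase induced by cyclic AMP that restrains the coactivators of CREB, read 174.9 and 205.7 at 1 h, against 52.8 and 32.8 at time 0 (1.83 ± 0.24, adjusted p = 0.000172). Mfsd2a, a lysophosphatidylcholine transporter that fasting induces in liver, read 721.6 and 692.5 at 1 h, against 96.5 and 52.6 at time 0 (3.04 ± 0.46, adjusted p = 0.000933), and lost its call in the fit of the 20 adult arrays (adjusted p = 0.0618). Pde4b, a phosphodiesterase that degrades cyclic AMP, changed by 1.26 ± 0.25 (adjusted p = 0.0153) and lost its call in 3 of 4 cases (highest adjusted p = 0.290). The other raised members were Tat and Dusp1, given above.

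Of the 22 genes of this list 14 were higher and 0 lower at an unadjusted limma p under 0.05, against 1126 and 429 of all 18194. The classic glucocorticoid targets did not move alike. Fkbp5 read 234.6 and 222.3 at 1 h, against 297.1 and 252.0 at time 0 (-0.25, adjusted p = 0.941). Tsc22d3 (0.29, adjusted p = 0.862) and Per1 (0.61, adjusted p = 0.471) had groups that overlapped. Klf9 (0.80, adjusted p = 0.0611) and Lpin1 (1.93, adjusted p = 0.0689) were higher on both 1 h arrays and missed the threshold. The other probe set of Lpin1 read 520.4 and 1024 at 1 h, against 136.8 and 214.2 at time 0. It changed by 1.99 and passed when limma tested every probe set (adjusted p = 0.00681). Metallothioneins, which bind zinc, read 4802 and 5431 (Mt1) and 3569 and 3557 (Mt2) at 1 h, against 947.3 and 3489 (Mt1) and 837.0 and 2377 (Mt2) at time 0. Neither was called (adjusted p = 0.267 and 0.279).

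Amino acid transport and breakdown had 3 raised members of 20. Slc38a2, a sodium-coupled neutral amino acid carrier, read 1837 and 2647 at 1 h, against 537.1 and 626.1 at time 0 (1.90 ± 0.24, adjusted p = 0.000116). Oat, ornithine aminotransferase, read 2274 and 2227 at 1 h, against 1109 and 1282 at time 0 (0.91 ± 0.20, adjusted p = 0.0325), and lost its call without any 1 array (highest adjusted p = 0.301) and under quantile normalization. The third was Tat. The list median of 0.70 was 0.24 after quantile normalization, and the urea cycle genes Cps1 (0.77, adjusted p = 0.510), Otc (1.03, adjusted p = 0.195) and Asl (0.99, adjusted p = 0.365) were not called.

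Ddit4, an inhibitor of the growth kinase mTORC1 that glucocorticoids and stress induce, read 678.3 and 502.8 at 1 h, against 46.0 and 23.9 at time 0 (3.59 ± 0.36, adjusted p = 6.99e-06). It was the 1 raised member of the 25 of the unfolded protein and integrated stress response list. Derl3, a component of degradation at the endoplasmic reticulum, was the 1 lowered member. It read 52.1 and 13.5 at 1 h, against 183.6 and 193.6 at time 0 (-2.19 ± 0.39, adjusted p = 0.00565), and lost its call without the second 1 h array (adjusted p = 0.290) and without the first time 0 array (0.0504). Other targets of the unfolded protein response, Creld2 (-1.31, adjusted p = 0.573), Syvn1 (-0.88, adjusted p = 0.670) and Hspa5 (-0.48, adjusted p = 0.850), were not called. Ddit3, the gene of CHOP, read 65.4 and 90.7 at 1 h, against 86.6 and 73.9 at time 0, with overlapping groups.

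Among 24 members of the interleukin 6 list 2 were raised, Pim3 and Stat5b. Pim3, a survival kinase, read 900.2 and 1451 at 1 h, against 235.0 and 323.0 at time 0 (1.99 ± 0.26, adjusted p = 0.000202). Stat5b, the growth hormone signal transducer, read 369.3 and 461.1 at 1 h, against 222.0 and 267.0 at time 0 (0.72 ± 0.16, adjusted p = 0.0391). Its call was lost without the second 1 h array (adjusted p = 0.675), without the first time 0 array (0.421) and under quantile normalization. Socs3, the STAT3-induced feedback inhibitor, read 541.7 and 695.3 at 1 h, against 288.0 and 504.8 at time 0 (0.66 ± 0.30, adjusted p = 0.555).

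Interleukin 6 itself was near the floor, with Il6 at 7.00 and 21.1 at 1 h, against 13.2 and 9.69 at time 0. Its receptor Il6ra read 117.9 and 96.3 at 1 h, against 103.8 and 113.7 at time 0, and Stat3 read 555.3 and 576.9 at 1 h, against 514.8 and 604.5 at time 0. The groups of all 3 overlapped. Cebpb, a factor required for normal regeneration, read 1277 and 1118 at 1 h, against 552.1 and 498.5 at time 0 (1.16 ± 0.32, adjusted p = 0.148), and was called in 3 of the alternative fits, those without the 48 h arrays, with array weights and with the 8 arrays of time 0 to 6 h (adjusted p 0.00455 to 0.0465).

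Of 31 measured NF-kB targets, chemokines and cytokines 0 were called by limma, where 0.473% of all genes were called. In this list 3 were lower and 0 higher at an unadjusted limma p under 0.05, against 429 and 1126 of all 18194. The list median was -0.13. Cxcl1, a chemokine for neutrophils, read 510.4 and 404.4 at 1 h, against 1002 and 2106 at time 0 (-1.64 ± 0.47, adjusted p = 0.195). Nfkbiz, an early NF-kB target, read 81.5 and 75.3 at 1 h, against 163.3 and 167.6 at time 0 (-0.94 ± 0.24, adjusted p = 0.115). Saa2, an acute phase apolipoprotein, was lowered. It read 346.0 and 212.9 at 1 h, against 904.0 and 785.3 at time 0 (-1.58 ± 0.32, adjusted p = 0.0227). The call of Saa2 was lost without the second 1 h array (adjusted p = 0.537) and without either time 0 array (0.204 and 0.0577).

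Saa2 was the 1 called gene among 24 acute phase proteins. Saa1 read 1013 and 604.6 at 1 h, against 1563 and 1968 at time 0 (-1.15 ± 0.26, adjusted p = 0.0577). Hamp, which encodes the iron hormone hepcidin, read 8445 and 8527 at 1 h, against 2268 and 4240 at time 0 (1.45 ± 0.34, adjusted p = 0.0686). The list median was 0.56 on the deposited scale and -0.02 after quantile normalization, so the direction of the list depended on the scale.

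Among 31 growth factors, receptors and matrix signals, Fst and Smad7 were raised and Inhbe was lowered. Of the other ligands and receptors of the activin and TGF-beta family in the list, Inhba (0.20), Inhbb (0.33), Bmp2 (0.41) and Bmp4 (0.40) were higher on both 1 h arrays. Inhbc (0.06), Tgfb1 (0.11), Tgfb2 (0.07), Tgfbr1 (0.01) and Bmp6 (-0.30) had groups that overlapped. None of these genes was called. Fst, follistatin, which binds and blocks activin, read 97.4 and 104.7 at 1 h, against 24.6 and 27.5 at time 0 (1.48 ± 0.28, adjusted p = 0.0116). Smad7, the inhibitory SMAD, read 179.4 and 193.6 at 1 h, against 76.2 and 65.3 at time 0 (1.22 ± 0.19, adjusted p = 0.00109). Inhbe, a liver activin subunit, read 24.4 and 27.0 at 1 h, against 220.0 and 133.0 at time 0 (-2.17 ± 0.48, adjusted p = 0.0448). Skil, a repressor of SMAD signalling outside this list, read 386.0 and 674.4 at 1 h, against 142.1 and 97.6 at time 0 (1.98 ± 0.25, adjusted p = 9.96e-05).

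The call of Inhbe was lost without any 1 array (adjusted p 0.0551 to 0.438) and that of Fst in 3 of 4 cases (highest 0.161). Smad7 rested on an ambiguous probe set, its other probe set gave 0.51, and its call ended without ambiguous probe sets and with the mean of probe sets. Hgf, the mitogen of hepatocytes, read 79.3 and 80.8 at 1 h, against 43.8 and 47.7 at time 0 (0.64 ± 0.19, adjusted p = 0.229), and its receptor Met changed by 0.45 (adjusted p = 0.602). Each of the other probe sets of Hgf gave 0.11. The matrix proteins Ccn2 (1.12, adjusted p = 0.209) and Ccn1 (0.77, adjusted p = 0.208) were higher on both 1 h arrays and not called.

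The circadian clock list held 4 raised and 2 lowered members of 18. Nr1d1 and Nr1d2, which encode the repressors REV-ERB alpha and beta, were lowered, and Cry1, Nfil3, Clock and Bhlhe40 were raised. Nr1d2 read 130.7 and 136.2 at 1 h, against 426.4 and 468.7 at time 0 (-1.63 ± 0.23, adjusted p = 0.000428). Nr1d1 read 29.7 and 29.5 at 1 h, against 108.5 and 159.8 at time 0 (-1.70 ± 0.33, adjusted p = 0.0153). Cry1, a core repressor, read 201.0 and 230.9 at 1 h, against 77.8 and 43.2 at time 0 (1.63 ± 0.23, adjusted p = 0.000433). Nr1d2 and Cry1 stayed called without any 1 array.

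Nfil3, a repressor that opposes Dbp, read 403.7 and 371.1 at 1 h, against 124.2 and 101.5 at time 0 (1.65 ± 0.34, adjusted p = 0.0240). It lost its call without any 1 array (adjusted p 0.0996 to 0.169), as did Bhlhe40 (1.55 ± 0.32, adjusted p 0.105 to 0.312), whose call quantile normalization also ended. Clock (0.89 ± 0.20) and Nr1d1 lost theirs in 3 of 4 cases (highest adjusted p = 0.312 and 0.160). The other probe sets of Clock gave 0.86, 0.43 and 0.20. Without 1 of the arrays 1 or 2 members of the list were raised and 1 or 2 lowered. Of the output factors, Dbp read 228.5 and 216.6 at 1 h, against 578.6 and 484.4 at time 0 (-1.19, adjusted p = 0.0717), and Tef read 172.3 and 143.5 at 1 h, against 329.4 and 334.2 at time 0 (adjusted p = 0.0987). Arntl, the partner of Clock, read 139.4 and 114.9 at 1 h, against 138.6 and 123.0 at time 0. The labels do not give the hour of day at which livers were taken, so a difference in hour and the operation cannot be told apart.

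Lipid genes gave 1 lowered gene and few other calls. Pnpla3, an insulin-induced protein of lipid droplets, read 90.4 and 147.3 at 1 h, against 380.8 and 280.6 at time 0 (-1.38 ± 0.26, adjusted p = 0.0103). It lost its call without the first 1 h array (adjusted p = 0.184) and without the first time 0 array (0.199). It was the 1 called gene of 22 in fatty acid synthesis, whose median (0.21) turned to -0.06 after quantile normalization. Mid1ip1, at 343.9 and 257.9 at 1 h against 828.6 and 452.3 at time 0, and Elovl6 (-0.83) were lower on both 1 h arrays and not called (adjusted p = 0.208 and 0.345). Of 16 cholesterol genes limma called 0, where 0.473% of all genes were called. Among the 16, 2 were lower and 0 higher at an unadjusted limma p under 0.05, against 429 and 1126 of all 18194. Their median was -0.18 (-0.48 after quantile normalization). Hilpda, an inhibitor of fat breakdown in lipid droplets, read 91.8 and 230.9 at 1 h, against 26.9 and 17.1 at time 0 (2.11 ± 0.34, adjusted p = 0.00189), and lost its call without the second 1 h array (adjusted p = 0.123).

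Bile acid genes had 0 of 17 called by limma, where 0.473% of all genes were called. They had 5 higher and 0 lower at an unadjusted limma p under 0.05, against 1126 and 429 of all 18194. Nr0b2, the repressor SHP, read 1006 and 859.0 at 1 h, against 286.9 and 129.5 at time 0 (2.17 ± 0.59, adjusted p = 0.151). Cyp8b1, sterol 12-alpha-hydroxylase, changed by 1.37 (adjusted p = 0.0987). Cyp7a1, the rate-limiting enzyme of bile acid synthesis, read 494.7 and 1116 at 1 h, against 626.3 and 264.0 at time 0, with overlapping groups. The list median was 0.51 and 0.30 after quantile normalization.

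None of the 30 cell cycle and replication genes was called by limma, where 0.473% of all genes were called. Of the 30, 1 (Ccnd1) was lower and 0 higher at an unadjusted limma p under 0.05, against 429 and 1126 of all 18194. Ccnd1, the cyclin of entry into the cycle, read 217.1 and 413.9 at 1 h, against 786.9 and 520.5 at time 0 (-1.05 ± 0.29, adjusted p = 0.150). All 3 of its probe sets were lower at 1 h, and their mean gave -1.23 (adjusted p = 0.0375).

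The lists of cytochrome P450 and secreted plasma proteins held 0 called genes, while 15 of the 810 genes with a mean level of 1000 or more were raised. The cytochrome P450 list had a median of 0.83 on the deposited scale and 0.22 after quantile normalization, and 16 of its 18 members were higher on both 1 h arrays. Secreted plasma proteins had medians of 0.55 and -0.01, and 17 of 18 were higher on both 1 h arrays. These counts are on the deposited scale, where 24.2% of all genes were higher on both 1 h arrays. On that scale the median log2 change of the 810 genes at 1000 or more was 0.63. Alb, serum albumin, read 8536 and 8844 at 1 h, against 8205 and 7464 at time 0 (0.15, adjusted p = 0.965). Cyp2e1 read 7918 and 8426 at 1 h, against 5294 and 6985 at time 0 (0.42, adjusted p = 0.614). Hnf4a, the master factor of hepatocytes, changed by 0.83 (adjusted p = 0.468) in the probe set used and by 0.07 to 0.36 in its 3 others.

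Raised genes outside the lists included several enzymes and regulators. Qdpr, which recycles the cofactor of phenylalanine hydroxylase, read 4094 and 4965 at 1 h, against 1342 and 1255 at time 0 (1.78 ± 0.27, adjusted p = 0.00109), and lost its call under quantile normalization and in the fit of the 20 adult arrays (adjusted p = 0.0602). Txnip, a glucose-responsive inhibitor of thioredoxin, read 743.1 and 1247 at 1 h, against 222.7 and 339.5 at time 0 (1.75 ± 0.23, adjusted p = 0.000178). Trp53inp1, a stress protein of autophagy, read 948.0 and 1779 at 1 h, against 237.0 and 302.0 at time 0 (2.21 ± 0.28, adjusted p = 9.96e-05). Rasgef1b, an exchange factor for small GTPases, read 382.7 and 530.8 at 1 h, against 78.4 and 88.8 at time 0 (2.23 ± 0.24, adjusted p = 1.75e-05). Wsb1, a ubiquitin ligase subunit, read 759.2 and 763.2 at 1 h, against 223.7 and 266.1 at time 0 (1.58 ± 0.17, adjusted p = 1.57e-05). Txnip, Trp53inp1, Rasgef1b and Wsb1 stayed called without any 1 array.

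Further raised genes rested on fewer settings. Alas1, the first enzyme of heme synthesis, read 2062 and 3237 at 1 h, against 987.0 and 632.9 at time 0 (1.69 ± 0.32, adjusted p = 0.00975). It lost its call without the second array of either group (adjusted p = 0.312 without that of 1 h and 0.105 without that of time 0) and under quantile normalization. Sdc4, a heparan sulfate proteoglycan, read 3335 and 4037 at 1 h, against 632.7 and 1503 at time 0 (1.89 ± 0.40, adjusted p = 0.0274), and lost its call in 3 of 4 cases (highest adjusted p = 0.511). Ifrd1, a transcriptional co-regulator, read 287.2 and 509.7 at 1 h, against 101.6 and 67.6 at time 0 (2.01 ± 0.32, adjusted p = 0.00161), and lost its call without the second 1 h array (adjusted p = 0.102). Brf2, a factor of RNA polymerase III, read 467.7 and 474.4 at 1 h, against 136.4 and 70.9 at time 0 (2.08 ± 0.39, adjusted p = 0.00954), and lost its call in 3 of 4 cases (highest adjusted p = 0.121).

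Some called genes had values at or below 0. Rccd1 read 50.9 and 170.8 at 1 h and was listed below 0 on both time 0 arrays (-92.5 and -74.5). Nxph1, a neuronal secreted protein, read 114.2 and 120.0 at 1 h, against 6.12 and -7.47 at time 0, while its 2 other probe sets lay under 20 on all 4 arrays. Its call was lost without the second 1 h array (adjusted p = 0.0645). Values below 0 occurred on at least 1 of the 4 arrays in 3 raised and 5 lowered genes.

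The remaining falls included Osgin1, an oxidative stress response gene, which read 124.5 and 122.8 at 1 h, against 638.2 and 710.7 at time 0 (-2.30 ± 0.44, adjusted p = 0.0114). Its groups were well apart, and its call was lost without any 1 array (adjusted p 0.0649 to 0.135). Neat1, the nuclear RNA of paraspeckles, read 174.9 and 331.5 at 1 h, against 872.1 and 858.3 at time 0 (-1.77 ± 0.34, adjusted p = 0.0122). It lost its call without the first 1 h array (adjusted p = 0.213) and without either time 0 array (0.108 and 0.0576). The other probe set of Neat1 gave -0.22. Malat1, a neighbouring nuclear RNA, read 88.4 and 94.3 at 1 h, against 109.7 and 155.6 at time 0 (-0.45, adjusted p = 0.341).

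Tfap2e, a gene of the AP-2 family, read 40.2 and -70.6 at 1 h, against 270.0 and 123.3 at time 0 (-2.73 ± 0.54, adjusted p = 0.0165). Atxn7l3, a subunit of the SAGA complex, was listed below 0 on both 1 h arrays (-8.08 and -108.0), against 145.4 and 35.4 at time 0 (-2.51 ± 0.43, adjusted p = 0.00405). Each lost its call without the second 1 h array (adjusted p = 0.554 for Tfap2e and 0.0633 for Atxn7l3) and without the first time 0 array (0.286 and 0.162). Gm9895 read 4.32 and -10.6 at 1 h, against 28.1 and 38.7 at time 0 (-1.45 ± 0.20, adjusted p = 0.000433). Rpl14, Zfp217 and Krtap19-9b completed the 14 lowered genes, with levels of at most 53.1 on any of the 4 arrays. Rpl14 lost its call without any 1 array (highest adjusted p = 0.286), and Zfp217 and Krtap19-9b in 3 of 4 cases (highest 0.570 and 0.625).

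Markers of the hepatocyte were high on all 4 arrays, as labelled. Their summed level (6 genes) was 43730 and 46180 at 1 h, against 33190 and 37020 at time 0. The median log2 change of the 6 genes was 0.36 on the deposited scale and 0.001 after quantile normalization. Of 71 markers of other cells in 11 lists limma called 0, where 0.473% of all genes were called. At an unadjusted limma p under 0.05, 8 of them were higher and 0 lower, against 1126 and 429 of all 18194. Summed neutrophil markers (11 genes) read 1506 and 1297 at 1 h, against 1008 and 1081 at time 0. Of the 11 markers 4 were higher and 2 lower on both 1 h arrays, where 24.2% of all genes were higher. S100a9 read 325.4 and 202.5 at 1 h, against 113.0 and 115.2 at time 0 (1.07, adjusted p = 0.192), while the granule gene Camp lay below 5 on all 4 arrays. Summed macrophage markers (10 genes) read 3765 and 4258 at 1 h, against 3834 and 3798 at time 0, and summed markers of stellate cells (9 genes) 4313 and 4783, against 3007 and 3453. In such bulk tissue fewer cells of a type and less RNA per cell cannot be told apart, and the part of other cell types in the results was not tested.

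Of the called genes 37 have more than 1 probe set, with 55 other probe sets between them. Of these 45 changed in the same direction as the one used, and 9 were called when every probe set was tested. In 15 genes another probe set had a log2 change over 1, among them Btg2 (3.10), Jun (2.68), Sik1 (2.14), Alas1 (1.87), Qdpr (1.84), Slc38a2 (1.76) and Cdkn1a (1.21). The 10 probe sets of opposite direction belong to 8 genes, which are Jund (-0.41), Sdc4 (-0.35), Pck2 (-0.29), Pde4b (-0.25), Gm26910 (-0.21), Skil (-0.16), Neurl1a and Nxph1.

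The genes called at 1 h ran different courses afterwards, given here as levels without a test. Of the 72 raised genes 32 had their highest mean over the adult times at 1 h itself, 20 at 2 h, 11 at 6 h and 9 later. These genes were chosen for being higher at 1 h than at time 0, which favours 1 h and shuts out time 0. The share among all genes was not computed, so the counts are description only. Dusp1 was still high at 2 h (974.4 and 1003), lower at 6 h (339.5 and 610.5) and near its time 0 level by 24 h (122.9 and 101.8). Fos was lower than at 1 h already at 2 h (341.3 and 195.3), with 6 h arrays far apart (71.8 and 312.6). Both were below their 1 h level on every later array.

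Igfbp1 stayed high at 2 h (5135 and 6810) and 6 h (4137 and 5786) and read 454.9 and 385.5 at 30 h. G6pc was high at 2 h (3484 and 4606), lower at 6 h (848.6 and 1735) and near or below 0 at 12 h (10.8 and -54.4). Cdkn1a was higher later, at 1060 and 864.2 at 12 h. Gadd45g was lower at 2 h (305.6 and 227.1) than at 1 h or at 6 h (748.9 and 550.7).

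Of the 14 lowered genes 8 had their lowest mean at 1 h, a count that their choice by low levels at 1 h likewise favours. Nr1d2 was still low at 2 h (170.1 and 135.6) and back near its time 0 level at 6 h (375.0 and 516.2), when Nr1d1 read 117.9 and 192.8. Saa2 was low at 2 h (209.0 and 298.6) and above all 4 arrays compared at 6 h (5368 and 2746). Derl3 was low at 6 h (33.0 and 19.1) and high at 24 h (408.2 and 613.4).

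**Figure D4:**
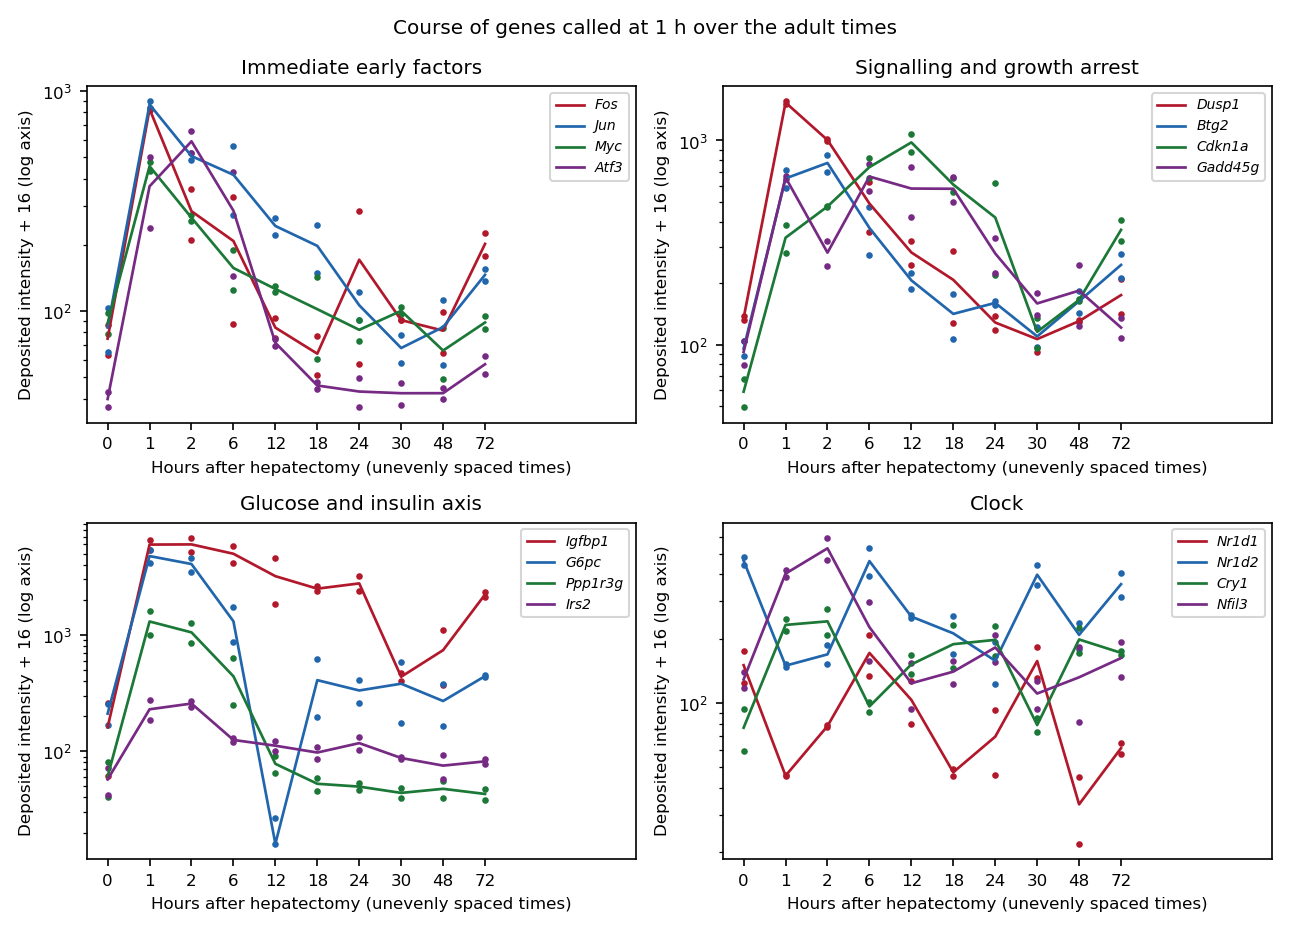
Deposited intensity plus 16 (log axis, values below 0 set to 0) at the adult times from 0 to 72 h after hepatectomy for 16 genes called at 1 h, with lines through the mean of 2 arrays and a point per array. Fos, Jun, Myc and Dusp1 have their highest mean at 1 h, Cdkn1a at 12 h (962.2), and Nr1d1 and Nr1d2 lie below both of their time 0 arrays at 1 h and 2 h.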

How the data were processed

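Affymetrix MG 430 2.0 arrays of 32 liver RNA pools were analysed from the deposited table of the series, which per the file headers holds 1 intensity per probe set and array. The values are linear, with 2.70% to 2.99% below 0 on the 4 arrays compared; which software, background treatment and normalization the authors used is not given in the sources used here. Per the labels' protocols, biotinylated cRNA was made from 6 µg of Trizol-extracted RNA.

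The deposited intensity was floored at 0 and transformed as log2(value + 16). Of 45101 probe sets 34958 name 1 gene, and the probe set of highest mean log2 value stood for each of 18194 genes. A model with a mean for each group was fitted over the 32 arrays in limma 3.58.1 (R 4.3.3), with a trend in eBayes; residual degrees of freedom were 16 and prior ones 4.76. P-values were adjusted by Benjamini-Hochberg over all genes. The fit was tested on simulated data. The labels' replicate numbers do not pair samples, so no block was used.

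The members and gene lists were chosen with earlier results of these data known. Any called gene could be named. Values on all 4 arrays were to be given for the 20 largest rises and 14 largest falls with a higher mean above 74.6, the median of all values. Beside these stood up to 4 uncalled members of smallest p per list and 18 liver genes. Uncalled genes outside that rule (Nr4a2, Klf10, Ier5, Inhba, Inhbb, Inhbc, Tgfb1, Tgfb2, Tgfbr1, Bmp2, Bmp4, Bmp6, Mdm2, Ccng1, Bbc3, Spry1, Ddit3, Syvn1, Hspa5, Igf1, Igfbp4, Ppargc1a, Fkbp5, Tsc22d3, Per1, Mt1, Mt2, Arntl, Cps1, Camp) were named with their values seen. Lists are described by counts and medians, with no test. Alternatives were other added constants, scalings, filters, probe sets, arrays and moderation, and leaving out each array. Promoters are RefSeq's.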

Additional observations from a re-analysis of the deposited data

How the results depend on the processing

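The counts of raised and lowered genes (72 and 14) depended most on which arrays were used. Leaving out 1 array gave between 33 and 95 raised and between 4 and 32 lowered genes. The 20 adult arrays gave 30 and 3, the 4 arrays compared 0 and 0 (1343 genes at an unadjusted p under 0.05), all arrays but those of 48 h 145 and 29, and, chosen after seeing the data, the 8 arrays of time 0 to 6 h 30 and 4. Quantile normalization gave 25 lowered genes. The 48 h arrays differed most from each other, with an SD of the difference of 0.741, against 0.364 at 1 h and 0.433 at time 0. Fewer arrays leave fewer degrees of freedom, and otherwise the cause was not tested. Other constants, median centring, the filter on low values, probe set rules, moderation and array weights moved the count of raised genes to between 63 and 101, and none of the 86 called genes changed sign in any alternative. The fit with the replicate number as a block had 72 raised genes, 68 of them the same, and 16 lowered, including all 14. The deviations of same-numbered arrays of 1 h and time 0 correlated at 0.19, within the range over all 120 pairs of groups (-0.36 to 0.55). So wide a range cannot decide whether the arrays are paired, and the labels give no pairing. Without detection calls, background can be judged only from 39 olfactory receptor genes, whose median was 51.9 and 48.3 at 1 h and 48.8 and 49.2 at time 0.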

Other observations

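The genes called at 1 h can also be read in the 12 embryonic arrays (10.5 to 16.5 days), as levels without a test. Of the 72 raised genes 26 lay below both adult groups on every embryonic array, 1 (Tab2) lay above both, and 45 overlapped or lay between. The share of all genes in these positions was not computed. The counts, here and for the lowered genes, therefore cannot be read as a trait of the genes called at 1 h. G6pc ranged from -49.5 to 2.94 in the embryo and Fos from 22.0 to 46.7, both under their adult values at 1 h and at time 0. Myc, in contrast, ranged from 230.7 to 537.8 with a median of 374.4, which spans its 1 h values of 461.5 and 417.0 and lies above its time 0 values of 62.5 and 81.7. Dusp1 had an embryonic median of 420.4 and Btg2 of 373.8, between their levels at 1 h and at time 0. Igfbp1 averaged 105.8 at 10.5 days and 963.7 at 16.5 days. Of the 14 lowered genes 5 (Saa2, Nr1d1, Nr1d2, Neat1 and Osgin1) lay below all 4 adult arrays on every embryonic array, 4 (Atxn7l3, Rpl14, Gm9895 and Zfp217) lay above them, and 5 overlapped or lay between.

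Among 9160 probe sets with no listed gene, 14 were raised and 4 lowered at 1 h in a fit of their own.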
